A study of Mus musculus with 54 samples.

Results

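Ccr1, Ccr2, Ccrl2, Cxcr4, Cmklr1, Fpr1 and Fpr2 are chemoattractant receptors, and their expression was followed here in macrophages sorted from mouse brains. The 7 genes were chosen by symbol, and each was present once among the 33280 genes of the deposited count tables. Their levels were described by cell type, and their differences by endotoxin, genotype, repopulation and Ccr2 lineage.

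Chemoattractant receptors are G protein-coupled receptors that steer leukocytes along gradients of secreted proteins or peptides. Fpr1 and Fpr2 bind formylated peptides released by bacteria and by damaged mitochondria, and Fpr2 also binds serum amyloid A and annexin A1. Ccr1 binds chemokines such as Ccl3 and Ccl5, Ccr2 binds Ccl2, Ccl7 and Ccl12 and is needed for monocytes to leave the bone marrow, and Cxcr4 binds Cxcl12 and keeps immature leukocytes in the marrow. Cmklr1 signals on binding chemerin, whereas Ccrl2 binds chemerin without signalling and presents it to other cells.

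Microglia, abbreviated MG, and subdural CNS-associated macrophages, or sdCAMs, which reside in the leptomeninges and around vessels, were sorted by FACS from brains without choroid plexus, and RNA-seq was performed on 54 libraries in 18 groups of 3. MG and sdCAMs came from C57BL/6 wild-type (WT) mice and from mice labelled Ccr2-/-, which carry a constitutive deletion. In both genotypes the groups were untreated mice given PBS, mice gavaged with vehicle (CTL) and given LPS, and mice gavaged with BLZ945 (BLZ), which depletes brain macrophages by blocking CSF1R, and given LPS. Lipopolysaccharide (LPS), a bacterial endotoxin, or PBS was injected intraperitoneally 12 h before sorting, 8 weeks after treatment, when depleted macrophages had repopulated. The comparison of CTL LPS with untreated PBS mice thus held the vehicle gavage as well as LPS.

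Reporter mice carried CreERT2 in both Ccr2 alleles and a tdTomato (tdT) allele at both R26 loci, and all of them received BLZ945 and tamoxifen, followed by PBS or LPS. Their sdCAMs were sorted into tdT+ cells, which descend from cells with an active Ccr2 locus at the time of tamoxifen, and tdT- cells, and MG were sorted alongside. Since CreERT2 sits in the Ccr2 locus, Ccr2 counts in reporter mice come from a modified locus and were not tested against those of WT mice. MG and sdCAM libraries with the same number came from one mouse. The WT and Ccr2-/- libraries are labelled batch 1 and lie in separate tables, and the reporter libraries are batch 2, so that each test stayed within a batch, but genotype cannot be told apart from table.

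Total counts ranged from 1705930 to 11330781 per library, with the lowest totals in WT sdCAMs. In WT sdCAMs after CTL LPS, in 1 WT sdCAM library after BLZ LPS and in tdT- sdCAMs after LPS, 34 to 58% of all counts fell on 20 genes, against 9 to 24% in the other libraries, and composition factors were 0.34 to 0.70 against 0.84 to 1.37. Levels are therefore given as scaled CPM, CPM (the count as a share of the library's total, times 1000000) divided by this factor, and no level is compared between genes. For a pair of reporter libraries, tdT- of mouse 1 and tdT+ of mouse 7 after LPS, the index number in the column name is that of the other library. In mouse 1, Xist and Ddx3y stood at 323 and 0 CPM in tdT- cells. They stood at 0 and 58.4 in its MG and at 0.485 and 166 in its tdT+ cells. In mouse 7 they stood at 0 and 128 CPM in tdT+ cells, at 974 and 0 in MG and at 323 and 0 in tdT- cells. With the pair exchanged, the same gene would be the higher in all libraries of each mouse, as in 22 of 24 mice as named. Whether the pair was exchanged was not tested. Results on tdT were computed as named, with the 2 libraries exchanged and without both. The summed level of 8 microglial markers was 10237 scaled CPM in tdT+ sdCAMs of mouse 5 after LPS, against 689 and 771 in the other mice, while its summed level of 8 sdCAM markers, 932, was the lowest of all sdCAM libraries. In all MG libraries the sdCAM markers summed to at most 31.3 scaled CPM. The microglial markers summed to 5968 to 12059 in untreated WT sdCAMs, against 30717 to 32581 in untreated WT MG. In untreated Ccr2-/- mice they summed to 4487 to 6394 in sdCAMs and 48685 to 49661 in MG. After CTL LPS they summed to 1054 to 2250 in WT sdCAMs and 7502 to 11782 in WT MG. In Ccr2-/- mice they then summed to 1151 to 1609 in sdCAMs and 14198 to 16294 in MG. As in all bulk samples, fewer cells that express a gene and less RNA per cell cannot be told apart.

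Fpr1 and Fpr2 are neighbours on mouse chromosome 17, where they face away from each other and their transcription starts lie 3885 bases apart. Because both rose with LPS in most populations, the 250 bases before each start are shown, from RefSeq on GRCm38.p6: the promoter of Fpr1 at chr17:17883940-17884189 on the minus strand and that of Fpr2 at chr17:17887574-17887823 on the plus strand. Capitals in the Fpr2 sequence mark the reverse complement of GAGGAA, the core recognised by the macrophage factor PU.1.
Fpr1: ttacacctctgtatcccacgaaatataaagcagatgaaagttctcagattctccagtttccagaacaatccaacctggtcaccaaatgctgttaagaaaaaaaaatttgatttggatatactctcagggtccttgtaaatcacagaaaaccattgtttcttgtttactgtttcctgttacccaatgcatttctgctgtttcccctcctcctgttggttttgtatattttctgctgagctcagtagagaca
Fpr2: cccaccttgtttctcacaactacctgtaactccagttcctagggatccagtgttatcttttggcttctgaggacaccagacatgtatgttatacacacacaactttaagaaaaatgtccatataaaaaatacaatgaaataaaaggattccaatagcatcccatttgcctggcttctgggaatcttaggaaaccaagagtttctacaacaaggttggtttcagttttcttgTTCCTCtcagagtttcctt

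Their GC contents were 38.4 and 38.8%. On either strand of these windows, 7 motifs were searched: a pair of NF-kB motifs, AP-1 as TGANTCA, C/EBP as TTGCNNAA, the interferon-stimulated response element, the cyclic AMP element as TGACGTCA and PU.1 as GAGGAA. The PU.1 core was the only one matched in the promoters of the 7 receptors, in Fpr2, Cmklr1 and Ccr1, and it occurs in 23.3% of 32851 mouse promoters of this length. The other motifs occur in 0.32 to 9.56% of them.

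The formyl peptide receptors were higher after LPS nearly throughout. Fpr1 rose in 7 of 7 populations and Fpr2 in 6 of 7, whereas Ccr1 rose in MG of WT and Ccr2-/- mice, Ccr2 fell in WT, tdT+ and tdT- sdCAMs, Cmklr1 rose in tdT+ and tdT- sdCAMs, and Ccrl2 rose in Ccr2-/- sdCAMs. No difference in Cxcr4 passed in the 5 populations in which it could be tested. A gene was called when the adjusted p of edgeR's quasi-likelihood test over all genes was under 0.05 and the log2 fold change beyond 1 in either direction, and adjusted p-values below are from that test unless another is named. Of all genes tested, LPS changed 16.7% in WT MG, 6.32% in WT sdCAMs, 19.4% in Ccr2-/- MG, 21.5% in Ccr2-/- sdCAMs, 1.08% in reporter MG, 13.4% in tdT+ sdCAMs and 26.5% in tdT- sdCAMs. All 4 calls in tdT+ sdCAMs held without mouse 5. A receptor called in one population and not in another is not thereby shown to respond differently. Whether groups overlap is given below as a description. The share of all genes whose groups do not overlap was not counted, so separate groups are no evidence beside the call.

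**Figure D1:**
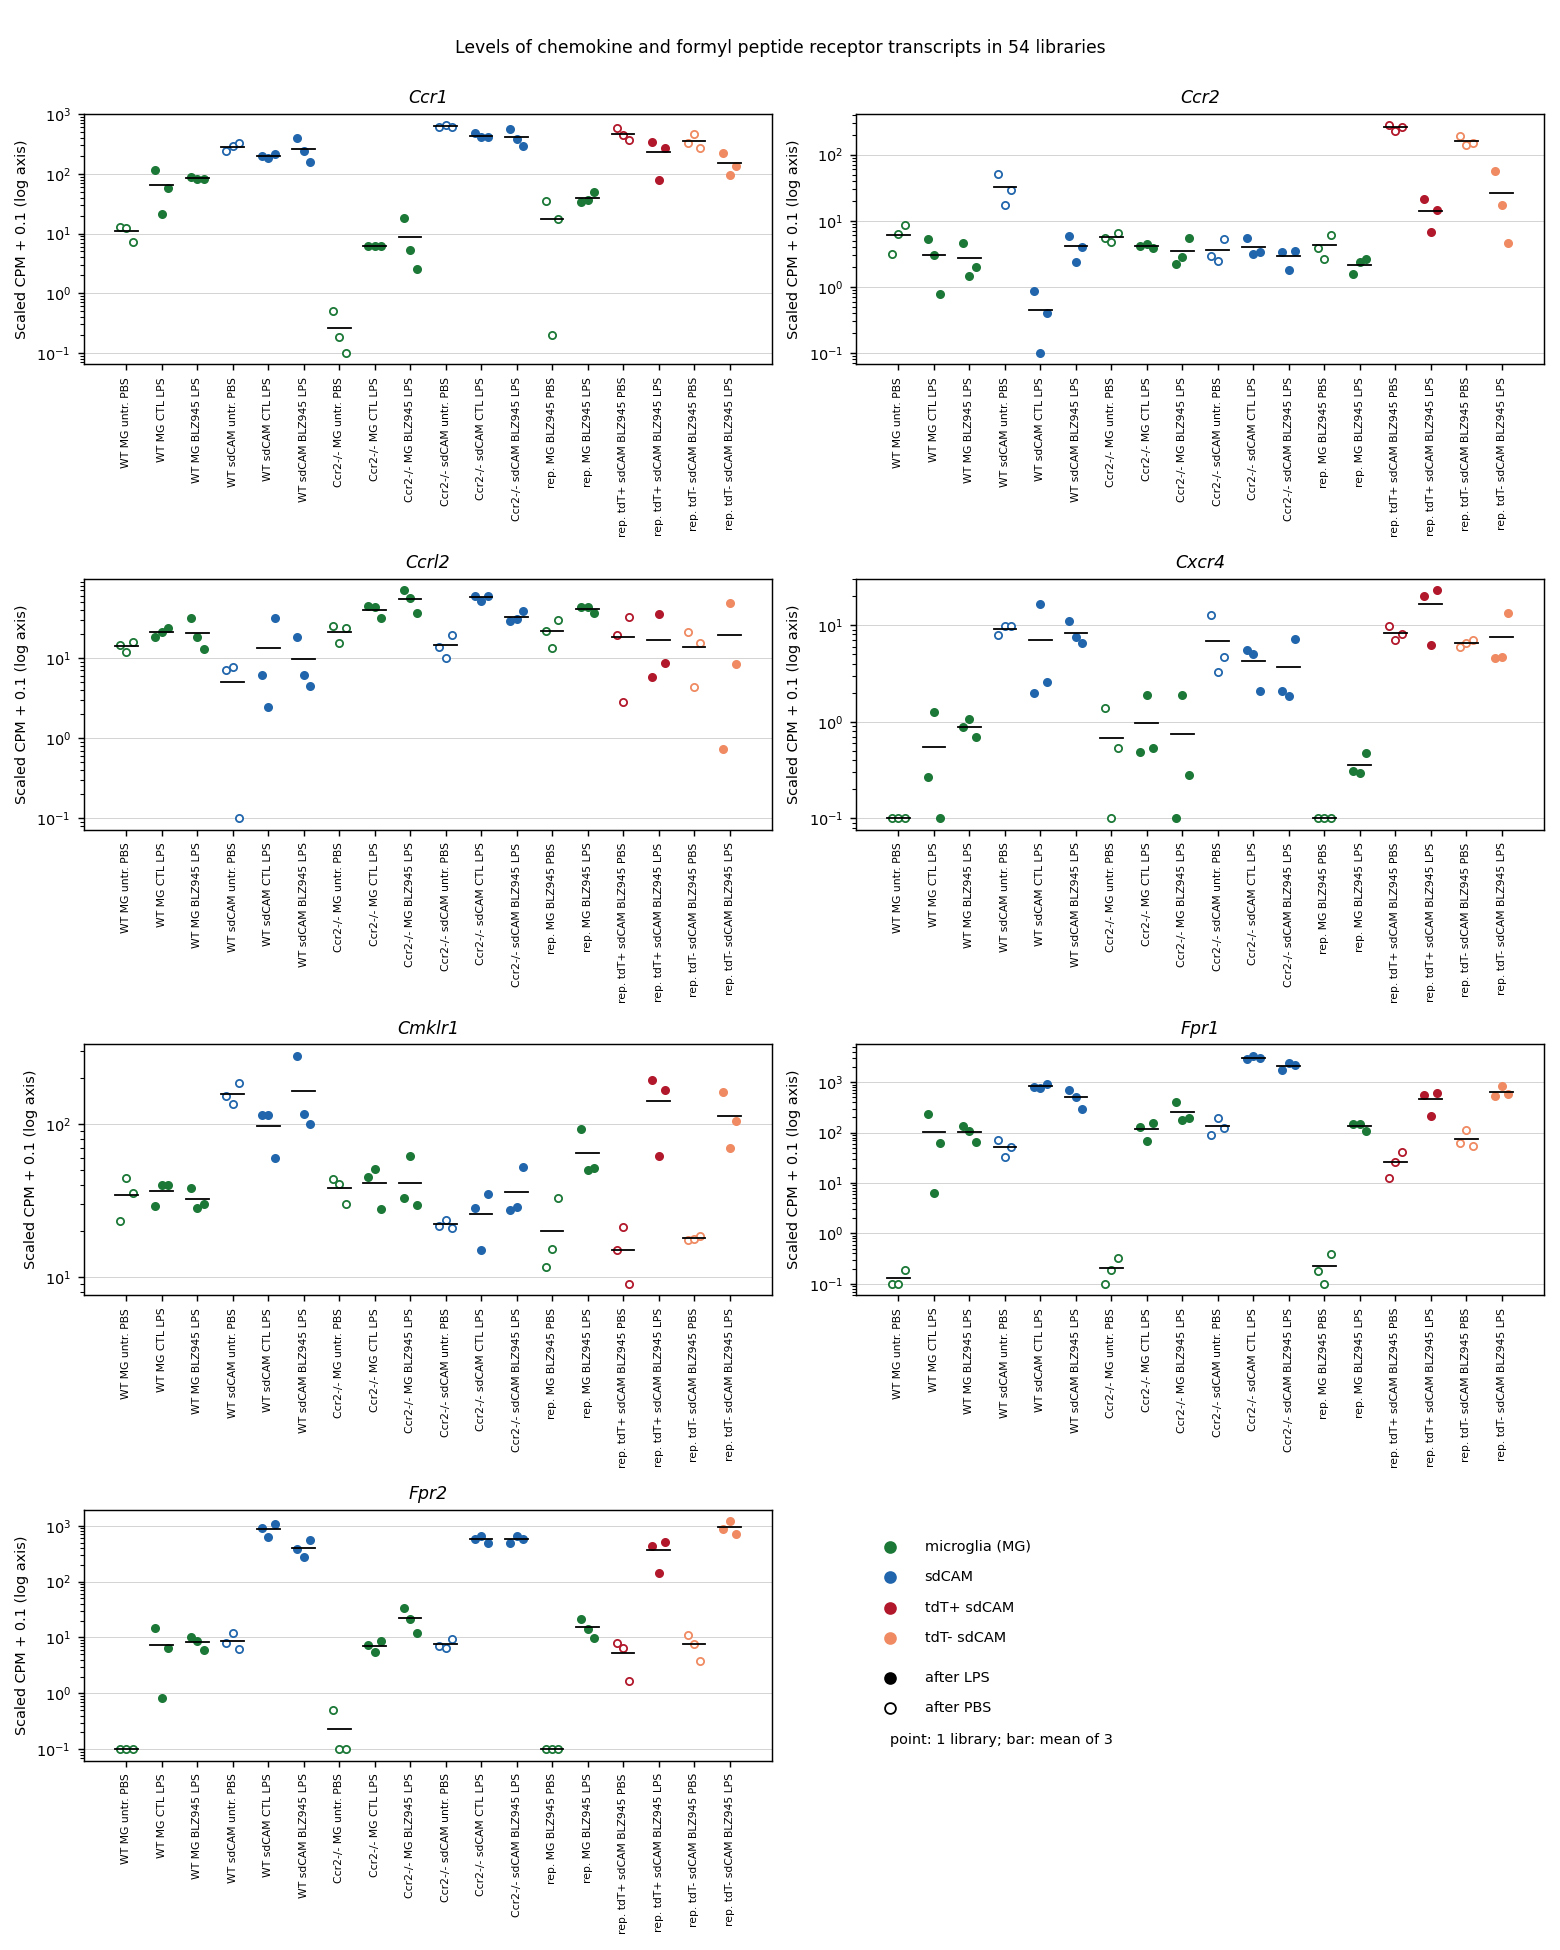
Levels of the 7 receptors in all 54 libraries. Each point is 1 library, the vertical axis is scaled CPM + 0.1 on a log scale, bars are means of 3, filled points are LPS and open points PBS, and colours mark MG, sdCAMs, tdT+ and tdT- sdCAMs. Within each population Fpr1 and Fpr2 lie higher in filled than in open points, and every group mean of Ccr1 in sdCAMs is above every group mean in MG.

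Fpr1 was close to absent from MG without LPS. In untreated WT MG it had 0, 0 and 1 counts in mice 9, 14 and 15, and after CTL LPS it reached 234, 6.29 and 63.6 scaled CPM in mice 1, 4 and 6. Every LPS library was above every untreated one, although the LPS mice differed widely, with mouse 1 highest and mouse 4 lowest. The rise had a log2 fold change of 11.16 (SE 1.62, adjusted p = 0.000411), but with 1 count in the untreated group the ratio of counts, 3170-fold, has a 95% counting interval from 568 to 125000. In untreated Ccr2-/- MG Fpr1 had 0, 1 and 2 counts, and after LPS 131, 67.8 and 154 scaled CPM. These groups were separate too, with a count ratio of 1220 (95% interval 416 to 5900, adjusted p = 7.03e-08). In reporter MG, Fpr1 stood at 0.0831, 0 and 0.298 scaled CPM after PBS and at 152, 148 and 110 after LPS (adjusted p = 0.00609), a count ratio of 1080 (95% interval 422 to 3970). This last call was lost without LPS mouse 1 or mouse 5, with adjusted p up to 0.0622, in a comparison in which few genes of any kind were called.

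In sdCAMs Fpr1 started from a measurable level. WT sdCAMs held 71.3, 32.5 and 51.7 scaled CPM untreated and 814, 761 and 943 after CTL LPS (log2 fold change 4.16, SE 0.62, adjusted p = 0.00587). Ccr2-/- sdCAMs had the highest levels of all groups, 2942, 3360 and 2978 scaled CPM after CTL LPS from 90.8, 199 and 122 untreated (log2 fold change 4.49, SE 0.27, adjusted p = 1.68e-07). In neither genotype did the groups overlap. In tdT+ sdCAMs the level was 12.6, 25.6 and 40.7 scaled CPM after PBS and 552, 213 and 608 after LPS, with mouse 5 lowest (log2 fold change 4.12, SE 0.52, adjusted p = 0.000158). In tdT- sdCAMs it was 60.8, 113 and 55 after PBS and 527, 843 and 581 after LPS (log2 fold change 3.09, SE 0.49, adjusted p = 0.000298). Both lineages thus showed Fpr1 rising in all 3 LPS mice above all PBS mice.

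Fpr2 had low levels in every group without LPS. No count was found in untreated WT MG or in reporter MG after PBS, and 4 counts were found in untreated Ccr2-/- MG, all in 1 mouse. After LPS it reached 14.4, 0.718 and 6.42 scaled CPM in WT MG, at least 74.6-fold higher than a floor of 3 counts over the untreated group (adjusted p = 0.00201), and 7.14, 5.42 and 8.42 in Ccr2-/- MG (adjusted p = 5.39e-05), a count ratio of 53.9 (95% interval 20.8 to 199). In WT MG the order of the mice was that of Fpr1, with mouse 1 highest and mouse 4 lowest. Reporter MG had 21.2, 14 and 9.85 scaled CPM after LPS, at least 157-fold above the floor, but the adjusted p of 0.0575 missed the threshold in this comparison.

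Levels of Fpr2 after LPS were much higher in sdCAMs. WT sdCAMs rose from 7.79, 11.8 and 6.13 scaled CPM to 901, 636 and 1080 (log2 fold change 6.79, SE 0.70, adjusted p = 0.00144). Ccr2-/- sdCAMs rose from 6.8, 6.51 and 9.16 to 580, 648 and 490 (log2 fold change 6.26, SE 0.22, adjusted p = 4.51e-09). In tdT+ sdCAMs the level rose from 7.78, 6.43 and 1.59 to 437, 141 and 518 scaled CPM, again with mouse 5 lowest (log2 fold change 6.11, SE 0.67, adjusted p = 6.47e-05). In tdT- sdCAMs it rose from 10.9, 7.68 and 3.66 to 879, 1210 and 714 (log2 fold change 6.97, SE 0.70, adjusted p = 6.6e-06). This is the highest group mean of Fpr2, 935 scaled CPM, with the libraries as named. The 879 is from the doubtful tdT- library of mouse 1, and the doubtful tdT+ library of mouse 7 held 518. The next group mean was 873 in WT sdCAMs after CTL LPS. Fpr2 shares 28.4% of its 50-base stretches with the pseudogene Gm5966 and 6.33% with Fpr3, so reads could be lost to or gained from them. Gm5966 had no count in any library and Fpr3 at most 2 counts in 3 libraries.

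**Figure D2:**
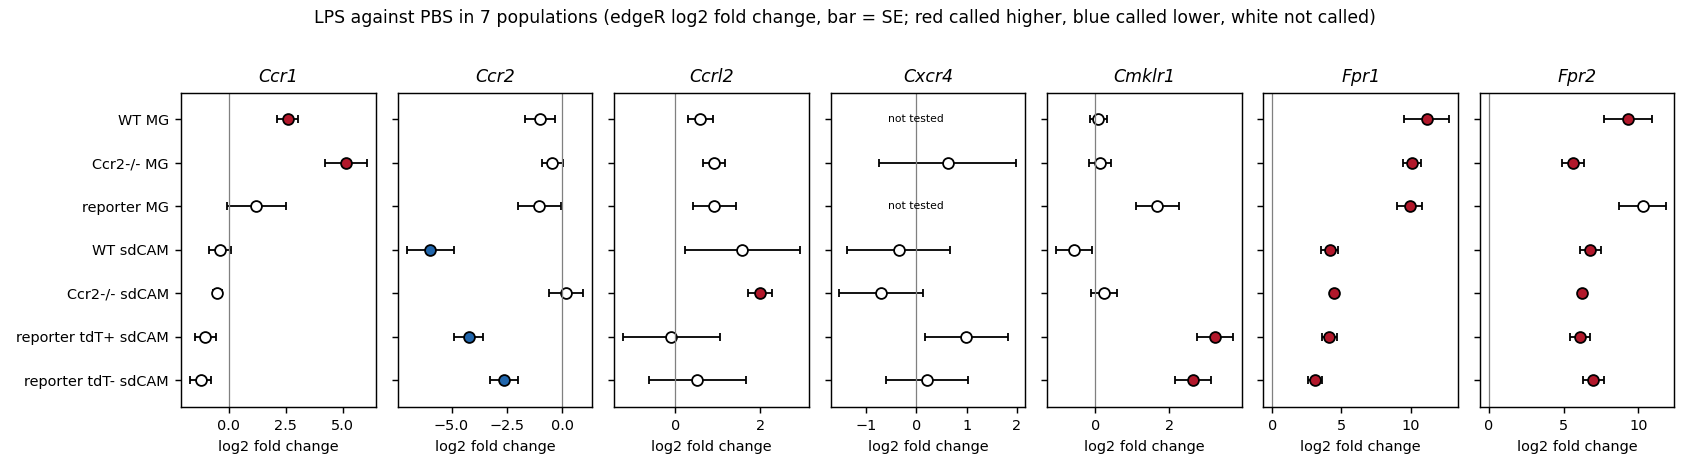
Log2 fold change with LPS (LPS against PBS) of each receptor in the 7 populations, from edgeR, with its SE as error bar. Red points are called higher, blue points lower and white points are not called, and Cxcr4 could not be tested in WT and reporter MG. Fpr1 is red in all populations and Ccr2 blue in 3 sdCAM populations.

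Formyl peptide receptors are also characteristic of neutrophils, so markers of other cells were examined beside these changes. Ly6g, which defines neutrophils in mice, had 0 counts in all 54 libraries, Retnlg reached 1.04 scaled CPM in 1 of 2 libraries that held it and Ltf at most 0.795. The summed level of 8 neutrophil markers was nevertheless higher in sdCAMs after LPS. It was 109 to 232 scaled CPM in untreated WT sdCAMs and 432 to 3375 after CTL LPS, and 104 to 132 and 331 to 383 in Ccr2-/- sdCAMs. In tdT+ sdCAMs it was 111 to 135 after PBS and 222 to 237 after LPS, and in tdT- sdCAMs 123 to 191 and 708 to 2488. S100a8 accounted for the highest of these sums, with up to 3250 scaled CPM. Mmp8 stood at 0 in untreated WT sdCAMs and 1.17 to 22.7 after CTL LPS, and at 0 to 0.105 and 16.6 to 28.9 in Ccr2-/- sdCAMs. It stood at 0 after PBS and 8.03 to 23.7 after LPS in tdT+ sdCAMs, and at 0 to 4.32 and 23.1 to 125 in tdT- sdCAMs. Csf3r was present in all libraries at 72.2 to 681. It made up most of the sum in MG, in tdT+ sdCAMs, and in Ccr2-/- sdCAMs after CTL LPS, at 241 to 306. In MG the sum was 340 to 683 without LPS and 165 to 388 with it. Monocyte markers, 8 genes, summed to 0 to 14.6 scaled CPM in untreated WT sdCAMs and to 30.6 to 121 after CTL LPS, and to 0 to 2.41 and 109 to 199 in Ccr2-/- sdCAMs. In reporter mice they summed to 0.451 to 17.5 after PBS and 21.6 to 127 after LPS in tdT+ sdCAMs, and to 27.1 to 154 and 21.1 to 81.3 in tdT- sdCAMs. Markers of endothelial cells, 5 genes, summed to 6.90 to 52.1 scaled CPM in untreated WT sdCAMs and to 297 to 756 after CTL LPS, to 4.88 to 17.9 and 146 to 261 in Ccr2-/- sdCAMs, to 1.58 to 37.6 and 36.5 to 79.7 in tdT+ sdCAMs, and to 3.05 to 22.1 and 57.3 to 201 in tdT- sdCAMs. The part of other cells in the changes of Fpr1 and Fpr2 was not tested beyond these levels.

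Among the chemokine receptors, Ccr2 fell in WT, tdT+ and tdT- sdCAMs. WT sdCAMs held 51, 17 and 28.9 scaled CPM untreated and 0.755, 0 and 0.307 after CTL LPS, that is 2, 0 and 1 counts. The groups were separate, with a log2 fold change of -5.96 (SE 1.07, adjusted p = 0.0128) and a count ratio of 73.6 (95% interval 24.9 to 360). The call was lost without CTL mouse 6 or untreated mouse 9, with adjusted p up to 0.0688. In tdT+ sdCAMs Ccr2 fell from 281, 230 and 262 scaled CPM to 21.2, 6.62 and 14.2 (log2 fold change -4.23, SE 0.67, adjusted p = 0.000894), and in tdT- sdCAMs from 194, 142 and 148 to 56.3, 17 and 4.45 (log2 fold change -2.63, SE 0.63, adjusted p = 0.00553). Every LPS library of both lineages was below every PBS library, and both calls held with the doubtful libraries exchanged and without them. In Ccr2-/- sdCAMs, at 2.33 to 5.47 scaled CPM in both groups, the log2 fold change was 0.19 (adjusted p = 0.888). MG had 0.685 to 8.53 scaled CPM in all groups of all genotypes, and none of the 3 MG responses passed, with log2 fold changes of -0.44 to -1.02. Markers of dendritic cells, 5 genes, were also lower after LPS. They summed to 98.5 to 201 scaled CPM in untreated WT sdCAMs and to 19.6 to 57.4 after CTL LPS, to 71.5 to 133 after PBS and 13.4 to 38.5 after LPS in tdT+ sdCAMs, and to 382 to 537 and 6.11 to 23.8 in tdT- sdCAMs. In Ccr2-/- sdCAMs, where Ccr2 had no called change, they summed to 429 to 628 untreated and 73.9 to 158 after CTL LPS. In tdT+ sdCAMs, 6 markers of lymphocytes summed to 20.4 to 116 after PBS and to 0.308 to 6.06 after LPS. In tdT- sdCAMs, where Ccr2 also fell, the lymphocyte markers summed to 0.104 to 42.4 after PBS and to 2.67 to 170 after LPS. The part of these cells in the change of Ccr2 was not tested.

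Ccr2 also checked the genotype label. In untreated sdCAMs of mice labelled Ccr2-/- it stood at 2.82, 2.33 and 5.2 scaled CPM, below all 3 WT libraries. In MG, and in sdCAMs after LPS, the genotypes overlapped or the level was lower in WT, so that Ccr2 counts separate the labels only in untreated sdCAMs. Which part of the gene is deleted and which the reads cover was not examined, and up to 6.47 scaled CPM were counted in libraries labelled Ccr2-/-.

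Ccr1, a receptor for inflammatory chemokines, rose in MG of WT and Ccr2-/- mice. In WT MG it rose from 12.9, 12.4 and 7.01 scaled CPM to 114, 21.5 and 57.3 (log2 fold change 2.58, SE 0.46, adjusted p = 0.00161), again highest in mouse 1 and lowest in mouse 4. In Ccr2-/- MG it rose from 4, 1 and 0 counts to 6.06, 6.02 and 6.08 scaled CPM (adjusted p = 0.00062), a count ratio of 37.4 (95% interval 15.8 to 116). The groups did not overlap in either genotype. In reporter MG the groups overlapped, with 34.4, 0.103 and 17.1 scaled CPM after PBS and 33.4, 36.7 and 49.2 after LPS, and the difference was not called (log2 fold change 1.20, SE 1.29, adjusted p = 0.802). In sdCAMs the log2 fold changes were -0.39 in WT, -0.51 in Ccr2-/-, -1.03 in tdT+ and -1.23 in tdT- cells, with adjusted p-values of 0.653, 0.0758, 0.156 and 0.061, and none passed. Every LPS library was nevertheless below every PBS library of its population. Levels were 181 to 212 against 241 to 323 scaled CPM in WT and 413 to 476 against 603 to 658 in Ccr2-/- sdCAMs. They were 78.9 to 346 against 372 to 589 in tdT+ and 93.8 to 221 against 268 to 457 in tdT- sdCAMs.

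Cxcr4, the receptor for Cxcl12, had low levels throughout. In sdCAMs it ranged from 1.73 to 22.8 scaled CPM, and log2 fold changes with LPS lay between -0.70 and 1.00 with none called. In untreated WT MG and in reporter MG after PBS it had no count, and in any MG library it reached at most 1.81 scaled CPM. After LPS, Cxcr4 had 15 counts over the group in WT MG and 8 in reporter MG, at least 4.35-fold and 2.77-fold higher than a floor of 3 counts over the group without LPS, but it was filtered out of both tests. In Ccr2-/- MG its log2 fold change was 0.63 (adjusted p = 0.764).

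Cmklr1, the signalling receptor of chemerin, rose in the sdCAMs of reporter mice. In tdT+ cells it rose from 14.9, 21.2 and 9 scaled CPM to 192, 62.3 and 166 (log2 fold change 3.22, SE 0.49, adjusted p = 0.000594) and in tdT- cells from 17.4, 17.8 and 18.6 to 162, 70 and 105 (log2 fold change 2.64, SE 0.47, adjusted p = 0.000712). The LPS libraries were above all PBS libraries in both lineages. In WT sdCAMs the level was 152, 134 and 185 scaled CPM untreated and 115, 114 and 60.2 after CTL LPS (log2 fold change -0.57, adjusted p = 0.505), in Ccr2-/- sdCAMs 21.6, 23.7 and 20.8 and then 28.3, 15 and 34.7 (0.23, adjusted p = 0.683). Neither pair passed. In MG the log2 fold changes were 0.08 in WT, 0.13 in Ccr2-/- and 1.68 in reporter mice, none of them called. Cmklr1 went along with the 18S ribosomal RNA gene Rn18s. Over the 54 libraries, which differ in depth and in the share of their most abundant genes, Pearson's r was 0.914 on log2(scaled CPM + 1), and over the 30 sdCAM libraries 0.951, against -0.524 to 0.519 for the other receptors over either set. Rn18s stood at 159 to 180 scaled CPM in tdT+ sdCAMs after PBS and 1940 to 9010 after LPS, and at 96.1 to 132 and 3230 to 4870 in tdT- sdCAMs. In untreated sdCAMs it stood at 5930 to 10800 in WT and 486 to 599 in Ccr2-/- mice. Counts of another gene, Lars2, split the same groups. They stood at 14500 to 52400 scaled CPM in untreated WT sdCAMs, 146 to 169 in untreated Ccr2-/- sdCAMs and 179 to 196 in untreated WT MG. In tdT+ sdCAMs they stood at 105 to 156 after PBS and 11100 to 61500 after LPS, and in tdT- sdCAMs at 84.5 to 90.6 and 922 to 14400. Calls of the other receptors between these groups cross the same split. The part of this in the differences of Cmklr1 or of the other receptors was not tested.

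**Figure D3:**
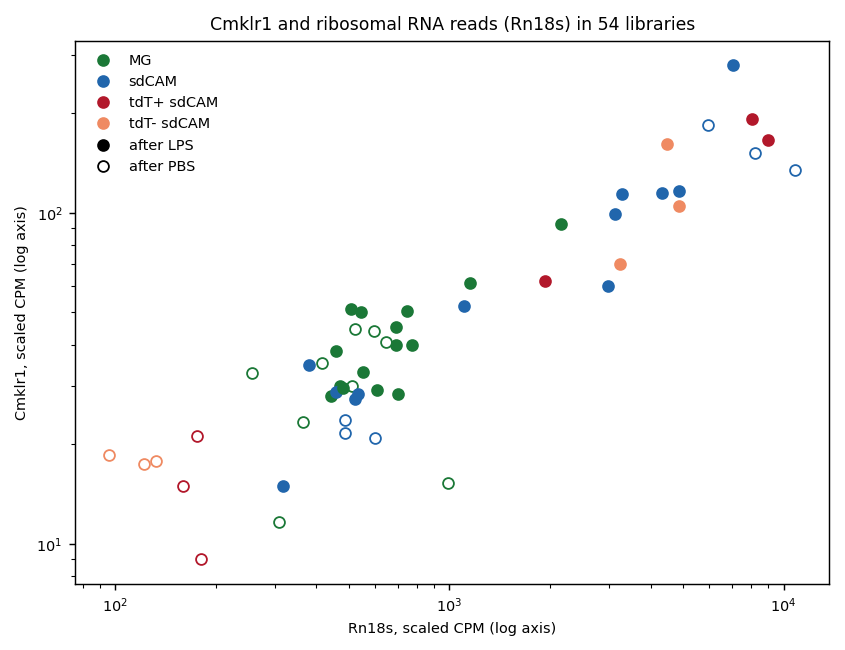
Cmklr1 against Rn18s in the 54 libraries, both in scaled CPM on log axes, with 1 point per library coloured by population. Libraries with high Rn18s, the WT sdCAMs and the reporter sdCAMs after LPS, are those with high Cmklr1.

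Ccrl2, the non-signalling chemerin receptor, rose in Ccr2-/- sdCAMs. Levels there were 13.7, 9.89 and 19.3 scaled CPM untreated and 60.2, 52 and 59.5 after CTL LPS (log2 fold change 2.00, SE 0.28, adjusted p = 0.000179). In Ccr2-/- MG the groups, 24.8, 15.3 and 23.7 scaled CPM untreated and 44.1, 43 and 31.4 after LPS, did not overlap, and the log2 fold change of 0.91 (SE 0.26, adjusted p = 0.0139) passed on p but not on size. In other sdCAMs Ccrl2 scattered widely between mice, for instance 0.643, 48.6 and 8.45 scaled CPM in tdT- cells after LPS, and no LPS difference passed there.

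In WT mice most of the receptors were higher in sdCAMs than in MG. Without treatment, WT sdCAMs exceeded WT MG in 6 of the 7 receptors and Ccr2-/- sdCAMs exceeded Ccr2-/- MG in Ccr1, Fpr1 and Fpr2, while 17.1% and 15% of all genes differed in either direction. Ccr1 had 241 to 323 scaled CPM in untreated WT sdCAMs and 7.01 to 12.9 in MG (log2 fold change 4.74, SE 0.54, adjusted p = 1.36e-05). In Ccr2-/- mice the gap was 603 to 658 against 0 to 0.397, or 5 counts in all MG, a count ratio of 3830 (95% interval 1640 to 11800, adjusted p = 5.3e-10). Set side by side across both batches, with no test, every group mean of Ccr1 in sdCAMs was above every group mean in MG.

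Fpr1 and Fpr2 followed the same order. Fpr1 in untreated mice was at 32.5 to 71.3 scaled CPM in WT sdCAMs and 1 count in all WT MG (adjusted p = 4.25e-05), a count ratio of 1580 (95% interval 282 to 62600), and in Ccr2-/- mice the ratio was 1390 (95% interval 476 to 6760, adjusted p = 3.86e-10). Fpr2 was at least 87.2-fold higher in WT sdCAMs than a floor of 3 counts over the MG (adjusted p = 0.000207), and 57.7-fold higher in Ccr2-/- sdCAMs (95% interval 22.2 to 214, adjusted p = 9.55e-07). Both receptors thus lay above MG in all untreated sdCAM libraries of both genotypes.

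Cxcr4, Cmklr1 and Ccr2 completed the WT difference. Cxcr4 had 7.79, 9.74 and 9.63 scaled CPM in untreated WT sdCAMs, at least 91.3-fold above the floor in MG (adjusted p = 0.0021), while in Ccr2-/- mice the log2 fold change of 3.53 had an adjusted p of 0.0572, which became 0.0467 when the mouse was taken as a block. Cmklr1 had 134 to 185 scaled CPM in WT sdCAMs and 23.4 to 44.5 in MG (log2 fold change 2.2, SE 0.39, adjusted p = 0.00121), with Rn18s at 5930 to 10800 and 366 to 522. In Ccr2-/- mice Cmklr1 was not called (-0.80, adjusted p = 0.108). The WT difference in Ccr2 (2.47, SE 0.80, adjusted p = 0.0427) was lost without sdCAMs of mouse 9 or without any single MG library, with adjusted p up to 0.177, and had an adjusted p of 0.112 with the mouse as a block. For Ccrl2 the difference passed in neither genotype (log2 fold changes -1.47 in WT and -0.58 in Ccr2-/- mice).

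After LPS 35.4% of all genes in WT and 18.4% in Ccr2-/- mice differed between the cell types. In WT mice Ccr1, Cxcr4, Cmklr1, Fpr1 and Fpr2 were higher in sdCAMs, with log2 fold changes of 1.67, 3.89, 1.47, 3.08 and 6.96 and adjusted p-values of 0.0107, 0.0232, 0.00708, 0.00647 and 6.48e-05. Scaling by total counts instead kept 1 of these 5 calls, that of Fpr2, and moved the median of all genes by -1.92, with Ccr1 then at -0.095 and Cmklr1 at -0.40, while Ccr2 was then called lower in sdCAMs at -4.36. The call of Ccr1 was also lost without MG of mouse 6, and that of Cxcr4 without MG of mouse 1 or 6 or sdCAMs of mouse 4. In Ccr2-/- mice Ccr1, Fpr1 and Fpr2 were higher, with log2 fold changes of 6.17, 4.72 and 6.36 and adjusted p-values of 2.38e-08, 1.65e-08 and 4.69e-10, and these calls held under every setting and left-out library.

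**Figure D4:**
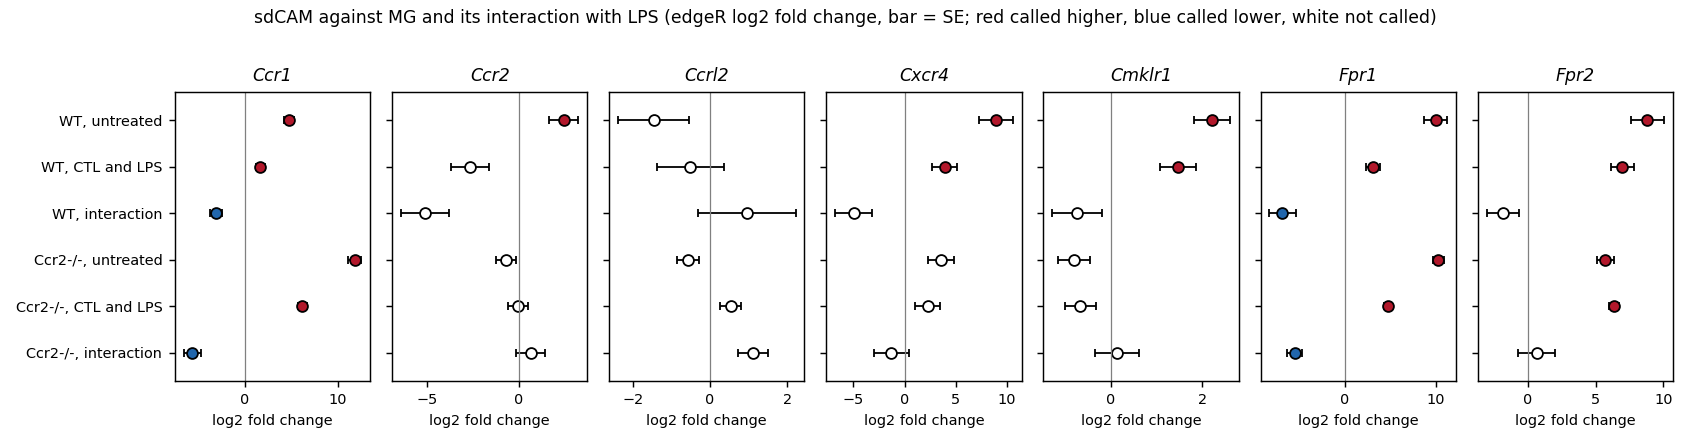
Log2 fold change of sdCAMs against MG without treatment and after LPS, and the interaction of cell type with LPS, in WT and Ccr2-/- mice, from edgeR with its SE. Red points are called higher in sdCAMs, or higher in the log2 response to LPS there, blue points the opposite, and white points are not called. Ccr1, Fpr1 and Fpr2 are red in every contrast of the cell types, and the interaction is blue for Ccr1 and Fpr1 in both genotypes.

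The log2 response to LPS itself differed between the cell types for Ccr1 and Fpr1. In WT mice, where 1.32% of all genes had a called interaction, it was -3.08 for Ccr1 (SE 0.66, adjusted p = 0.0298) and -6.90 for Fpr1 (SE 1.44, adjusted p = 0.0265) on the log2 scale, sdCAM response minus MG response. Taking the mouse as a block moved the adjusted p-values to 0.0613 and 0.0688, and each call was lost when single libraries were left out. Both were lost without any single untreated MG library, without MG of CTL mouse 1 or without sdCAMs of CTL mouse 4 or 6, and that of Ccr1 also without MG of CTL mouse 6 or sdCAMs of untreated mouse 14, with adjusted p-values up to 0.109 for Ccr1 and 0.0889 for Fpr1. In Ccr2-/- mice, with 6.88% of all genes called, the interactions were -5.62 (SE 0.92, adjusted p = 0.000538) and -5.56 (SE 0.83, adjusted p = 0.000203), and both held in all 7 settings and all 12 left-out libraries. The untreated MG had almost no counts of either gene in Ccr2-/- mice, and of Fpr1 in WT mice, so that the sizes of these interactions depend on few counts. They compare ratios and not levels. Mean Fpr1 went from 51.8 to 839 scaled CPM in WT sdCAMs and from 0.0299 to 101 in WT MG. In Ccr2-/- mice it went from 137 to 3094 in sdCAMs and from 0.102 to 118 in MG. No interaction passed for Fpr2 (-1.86 in WT, adjusted p = 0.433, and 0.65 in Ccr2-/- mice), for which both cell types rose.

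Genotypes were compared in untreated mice, where 5.52% of all genes differed in MG and 9.5% in sdCAMs. In MG, Ccr1 was lower in Ccr2-/- mice, with 5 counts in all against 7.01 to 12.9 scaled CPM in WT, a count ratio of 65.2 (95% interval 27.7 to 202, log2 fold change -5.97, SE 0.93, adjusted p = 0.000378), and the call held in all settings and left-out libraries. In sdCAMs Ccr1 was higher in Ccr2-/- mice, with 606, 658 and 603 against 241, 293 and 323 scaled CPM (log2 fold change 1.16, SE 0.35, adjusted p = 0.0448). The direction of Ccr1 was thus opposite in the cell types, but the sdCAM call was lost in 5 of 7 other settings and without any of the 6 libraries, with adjusted p up to 0.238. Fpr1 was also higher in Ccr2-/- sdCAMs (log2 fold change 1.44, SE 0.41, adjusted p = 0.033), and Ccr2 lower (-3.20, SE 0.81, adjusted p = 0.0196). Both calls were lost without any single Ccr2-/- library, that of Fpr1 also without WT mouse 14 or 15 and that of Ccr2 without WT mouse 9, with adjusted p up to 0.175 and 0.124. Cmklr1 was lower, at 20.8 to 23.7 against 134 to 185 scaled CPM (log2 fold change -2.79, SE 0.45, adjusted p = 0.00158), in all settings and without each library, beside the Rn18s difference given above. All 4 differences in sdCAMs were between groups that did not overlap.

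The response to LPS by genotype gave no call. By edgeR no gene at all passed in MG or in sdCAMs, 0% of those tested, with 503 and 1792 genes at an unadjusted p under 0.05, while DESeq2 called 1 gene in MG and 242 in sdCAMs. Among the receptors, the interaction farthest from 0 was that of Ccr2 in sdCAMs (6.43, SE 1.24, unadjusted p = 5.57e-05, edgeR adjusted p = 0.126), with a level that was already low in untreated Ccr2-/- cells, and DESeq2 gave it an adjusted p of 0.000331. Ccr1 in MG had an unadjusted p of 0.0498 (log2 fold change 2.60, edgeR adjusted p = 1), and no other receptor had an unadjusted p under 0.05.

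Repopulation after BLZ945 left these receptors without a called difference in LPS-treated mice. BLZ against CTL changed 0.0763% of all genes in WT MG, 0% in WT sdCAMs, 0.0173% in Ccr2-/- MG and 0% in Ccr2-/- sdCAMs, and none of the 7 receptors. The log2 fold change farthest from 0 was that of Ccr2 in WT sdCAMs, 5.78, 2.3 and 3.96 scaled CPM after BLZ against 0.755, 0 and 0.307 after CTL, a count ratio of 9.42 (95% interval 2.96 to 48, log2 fold change 3.04, unadjusted p = 0.0117, adjusted p = 0.689). These groups did not overlap. Fpr1 and Fpr2 were at 400, 180 and 194 and at 34.1, 21.4 and 11.7 scaled CPM in Ccr2-/- MG after BLZ, against 131, 67.8 and 154 and 7.14, 5.42 and 8.42 after CTL, with log2 fold changes of 1.12 and 1.67 and an adjusted p of 0.619 for both. All 3 BLZ libraries were above all CTL libraries for both genes, a description without the share of all genes that do so. In sdCAMs Fpr1 had 717, 507 and 301 scaled CPM after BLZ in WT (log2 fold change -0.80, adjusted p = 0.739) and 1749, 2381.5 and 2183.5 in Ccr2-/- mice (-0.58, adjusted p = 0.549), each below all CTL libraries of that genotype, and neither passed. In WT MG 6 receptors could be tested, and in the other populations all 7. Of these, 0, 1, 2 and 2 had an unadjusted p under 0.05 in WT MG, WT sdCAMs, Ccr2-/- MG and Ccr2-/- sdCAMs by edgeR. Of all genes tested, 776 of 11789, 758 of 10504, 769 of 11558 and 998 of 11941 did. DESeq2 called 1 receptor, in Ccr2-/- MG. Over all genes, DESeq2 called 11 in WT sdCAMs and 63 in Ccr2-/- sdCAMs, where edgeR had 758 and 998 at an unadjusted p under 0.05 and 0 calls. In WT sdCAMs the composition factor was 0.344 to 0.494 after CTL LPS. After BLZ LPS it was 0.369 in mouse 12 but 1.209 and 1.275 in mice 8 and 11. An unexplained label of IEG correction was on all CTL libraries and BLZ mouse 12, and not on BLZ mice 8 and 11. Label and composition thus line up in part with this comparison, so a missing call does not show equal levels.

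Lineage made no called difference either. Between tdT+ and tdT- sdCAMs, 0.0236% of all genes differed after PBS, 10.6% after LPS and 5.17% in their response to LPS, and none of the 7 receptors was called in any of these. After PBS, Ccr2 stood at 281, 230 and 262 scaled CPM in tdT+ and 194, 142 and 148 in tdT- cells, which did not overlap (log2 fold change 0.67, SE 0.58, adjusted p = 1). Cells sorted as tdT- thus also held Ccr2 counts. Fpr1 had 12.6, 25.6 and 40.7 scaled CPM in tdT+ and 60.8, 113 and 55 in tdT- cells after PBS (log2 fold change -1.54, SE 0.47, unadjusted p = 0.00489, adjusted p = 0.713). After LPS, Fpr2 had 437, 141 and 518 scaled CPM in tdT+ and 879, 1210 and 714 in tdT- cells (-1.36, SE 0.54, edgeR adjusted p = 0.133), and DESeq2 called it at an adjusted p of 0.0474. Neither pair of groups overlapped with the libraries as named. With the doubtful libraries exchanged, the Fpr2 groups after LPS would overlap, with 879 among the tdT+ and 518 among the tdT- values. Of the 7 receptors, 1 after PBS, 1 after LPS and 0 in the interaction had an unadjusted p under 0.05 by edgeR. Of all 12708 genes tested, 566, 3097 and 2483 did. The response of Ccr2 differed by -1.60 on the log2 scale (SE 0.85, adjusted p = 0.321). With the doubtful libraries exchanged, or without both, the count of receptors called stayed at 0, while the count of all genes called after LPS went from 1352 to 0 and 855.

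**Figure D5:**
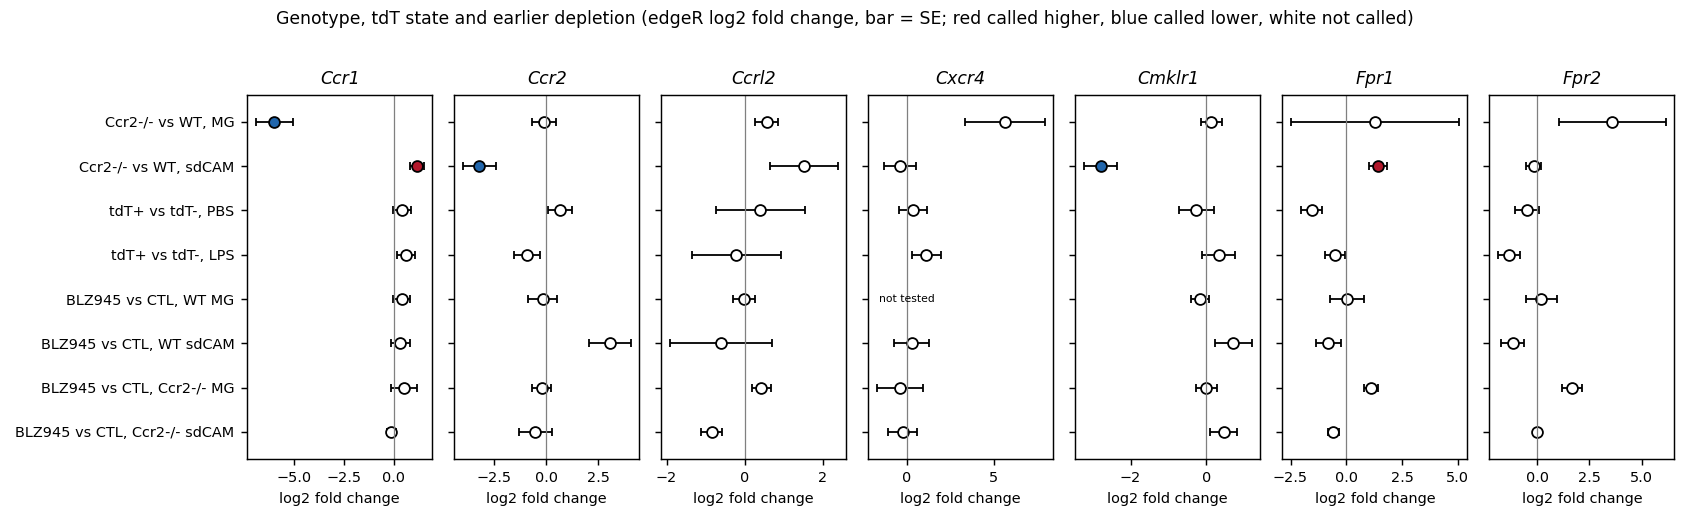
Log2 fold changes of the receptors by genotype, by BLZ945 against CTL after LPS and by tdT state, from edgeR with SE bars. Red is called higher, blue called lower and white not called, and only the genotype contrasts of untreated mice hold coloured points.

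The ligands, other receptors and shared signalling genes were taken from lists. Of 19 ligands of the 7 receptors, LPS raised 9 and lowered 1 of 11 tested in WT MG, 7 and 0 of 15 in WT sdCAMs, 9 and 1 of 11 in Ccr2-/- MG, 10 and 1 of 17 in Ccr2-/- sdCAMs, 2 and 0 of 11 in reporter MG, 5 and 3 of 16 in tdT+ and 9 and 1 of 16 in tdT- sdCAMs. Background shares of all genes called are those given above for LPS. Median log2 fold changes of the ligands were 3.67, 4.78, 3.77, 1.41, 3.19, 0.34 and 1.85 in this order, with the same values when genes at 0 in a group were set at their bound, and the median of all genes lay within -0.08 and 0.04. Saa3, a serum amyloid A and ligand of Fpr2, rose in WT MG (log2 fold change 10.09, adjusted p = 6.43e-05) and Ccr2-/- sdCAMs (9.92, adjusted p = 2.16e-05), and in tdT- sdCAMs from 41.6 to a mean of 361240 scaled CPM (13.08, adjusted p = 1.6e-06). Ccl5, a ligand of Ccr1, rose in MG (7.12 in WT and 7.95 in Ccr2-/-, adjusted p = 0.000234 and 6.05e-08). Anxa1, the annexin that binds Fpr2, fell by 3.13 on the log2 scale in tdT+ and by 4.52 in tdT- sdCAMs (adjusted p = 0.0226 and 0.00219). Ccl6, a further ligand of Ccr1, fell in WT and Ccr2-/- MG and in tdT+ sdCAMs, with log2 fold changes of -1.09, -1.56 and -2.23. Between the lineages after LPS, 7 of 16 ligands were lower in tdT+ cells and 0 higher, among them Saa2, Saa1 and Ccl8 with log2 fold changes of -4.80, -4.66 and -4.61, beside 10.6% of all genes called in either direction. With the doubtful libraries exchanged, 0 genes were called in this comparison.

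Other chemoattractant receptors moved both ways. Of 34, LPS raised 4 and lowered 3 of 15 tested in WT MG, 0 and 1 of 9 in WT sdCAMs, 5 and 4 of 12 in Ccr2-/- MG, 4 and 4 of 13 in Ccr2-/- sdCAMs, 1 and 0 of 9 in reporter MG, 1 and 1 of 15 in tdT+ and 1 and 6 of 15 in tdT- sdCAMs. The neutrophil chemokine receptor Cxcr2 was at least 45.6-fold higher in WT MG after LPS than the floor over untreated MG, and Ccr7, which guides cells to lymph nodes, at least 32.8-fold in WT MG and at least 408-fold in tdT+ sdCAMs. The complement receptor C5ar1 rose from 283 to 1580 scaled CPM in WT MG (2.49, adjusted p = 2.94e-07). Cxcr3, the receptor for interferon-induced chemokines, fell in 5 populations, to 0 counts and at least 24.1-fold lower in WT MG and with log2 fold changes of -4.59 in Ccr2-/- MG, -7.59 in Ccr2-/- sdCAMs, -4.84 in tdT+ and -3.49 in tdT- sdCAMs. Median log2 fold changes of these receptors lay between -2.07 and -0.07. The fractalkine receptor Cx3cr1 fell in WT MG, Ccr2-/- MG, Ccr2-/- sdCAMs and tdT- sdCAMs, with log2 fold changes of -1.40, -1.23, -3.46 and -2.91.

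Of 32 genes of the signalling that follows these receptors, LPS raised 1 to 4 and lowered 0 to 8 of the 28 to 31 tested in each population. Rgs10, which shortens G protein signalling, fell in WT MG (-2.34), Ccr2-/- MG (-2.44), Ccr2-/- sdCAMs (-3.23), tdT+ (-2.85) and tdT- sdCAMs (-2.58). Arrb1, the beta-arrestin that uncouples and internalises receptors, fell in WT MG (-1.34), WT sdCAMs (-2.94), Ccr2-/- MG (-2.25), Ccr2-/- sdCAMs (-3.62) and tdT- sdCAMs (-2.41). Pik3r6, a regulatory subunit of PI3K gamma, rose in WT, Ccr2-/- and reporter MG (1.19, 1.25 and 2.28) and in Ccr2-/- and tdT+ sdCAMs (1.96 and 1.60). Pik3r5, the other subunit, rose in Ccr2-/- (3.05), tdT+ (1.83) and tdT- sdCAMs (2.42).

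Across the 18 groups, the levels of each receptor formed an order in which most neighbours overlapped. The order sets groups of both batches side by side, reporter mice with their modified Ccr2 locus included, and is a description with no test. It takes the doubtful reporter libraries as named. Ccr1 ran from 622 scaled CPM in untreated Ccr2-/- sdCAMs to 0.161 in untreated Ccr2-/- MG, and 14 of its 17 neighbouring pairs overlapped, the others being the steps below the highest group, between the lowest sdCAM group and the highest MG group, and above the lowest group. Ccr2 ran from 258 in tdT+ sdCAMs after PBS to 0.354 in WT sdCAMs after CTL LPS, with 14 pairs overlapping. Fpr1 ran from 3094 in Ccr2-/- sdCAMs after CTL LPS to 0.0299 in untreated WT MG with 14, and Fpr2 from 935 in tdT- sdCAMs after LPS to 0 with 15. For Fpr2, tdT+ sdCAMs after LPS (365) did not overlap the next group, Ccr2-/- MG after BLZ LPS (22.4). Cxcr4 ran from 16.3 in tdT+ sdCAMs after LPS to 0 with 15 overlapping pairs, and for Cmklr1 (165 to 15) and Ccrl2 (57.3 to 4.91) all 17 overlapped.

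Genes with the most similar pattern over the 18 group means, by Pearson's r of log2(CPM + 1) among 11591 genes, are given as a description over groups of both batches, reporter mice included. They were Clec4d (0.987), Acp5 (0.972) and Clec4e (0.97) for Fpr2, Ehd1 (0.976), Ecm1 (0.97) and Milr1 (0.968) for Fpr1, Mdfic (0.906), Dok2 (0.887) and Samd9l (0.885) for Ccr1, and Ccdc152 (0.898), Gdf3 (0.894) and Stxbp6 (0.883) for Ccr2. For Cxcr4 they were Ms4a14 (0.967), Cd93 (0.95) and Ahnak (0.946), for Ccrl2 Rcl1 (0.969), Mpdu1 (0.954) and Cd14 (0.949), and for Cmklr1 Ccnk (0.948), Pum2 (0.943) and Setd1b (0.943). These values are on CPM without the composition factor. On scaled CPM the first of Cmklr1 was Rn18s (0.964). Tiparp (0.977) and Adam8 (0.976) then replaced Ecm1 and Milr1 for Fpr1, and Tuba1c (0.976) replaced Clec4e for Fpr2. Gab3 (0.891) replaced Samd9l for Ccr1, Cxcr6 (0.876) replaced Gdf3 for Ccr2, and Elovl1 (0.927) replaced Mpdu1 for Ccrl2. Fpr1 and Fpr2 correlated with each other at 0.883 on CPM and 0.891 on scaled CPM.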

How the data were processed

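Macrophages were sorted from mouse brains and profiled by RNA-seq in 54 libraries. The authors made cDNA with a SMARTer Ultra Low kit, built Nextera XT libraries, sequenced single reads, aligned them with STAR (2.7.11a in the submitters' processing notes) and counted reads per gene with featureCounts (2.0.8). The deposited values are whole-number counts per gene symbol without normalization, in 3 tables of 18 columns, and 0 columns lacked a sample. The kit marks no strand, duplicate reads were not marked by molecular identifiers, so counting intervals cover counting error only, and the genome build is named in 2 ways. Of 33280 symbols, 6948 had no count.

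Genes were filtered with filterByExpr and tested with edgeR 4.0.16 (R 4.3.3), TMM factors and the quasi-likelihood test in 24 comparisons, with Benjamini-Hochberg adjustment over all genes tested, two-sided, and a gene was called at adjusted p under 0.05 with a log2 change beyond 1. Fits held all groups of a population, or all groups of both populations where cell types or genotypes were compared. SE is the fold change divided by the root of F. The scripts were tested on simulated data. Alternatives were DESeq2 1.42.0, its size factors, library totals, the study's low-count rule, no filter, only the compared libraries, no fold limit, a replicate block, a mark on 6 WT sdCAM libraries (labelled IEG correction, with no explanation given) as a covariate or the marked libraries alone, and leaving out each library. Further alternatives were the exchange of, and the fit without, the 2 doubtful reporter libraries. The fit of the marked libraries alone was not planned and was added later.

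MG and sdCAMs of one number are from the same mouse, which pairs them. The correlation of their deviations from the group means was -0.001 to 0.183 in 9 WT mice, -0.087 to 0.289 in 9 Ccr2-/- mice and -0.047 to 0.199 in 6 reporter mice. Titles of the Ccr2-/- LPS libraries name the other cell type than their sorted-cell label and library name, and the latter were used. Replicates are mice, so p-values measure the spread between mice. The receptors and gene lists were chosen with earlier results of these data known, and named list genes are the 3 with the largest fold change per direction among those called with a mean of at least 1 CPM.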

Additional observations from a re-analysis of the deposited data

Results flagged for a closer look

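The log2 response to LPS differed between sdCAMs and MG in 4 tests of the interaction. For Ccr1 the difference of the log2 fold changes, sdCAM minus MG, was -3.08 in WT and -5.62 in Ccr2-/- mice, and for Fpr1 it was -6.90 and -5.56. Each comes from edgeR's interaction term with an adjusted p under 0.05. The untreated MG held 1 count of Fpr1 in WT mice, and 3 counts of Fpr1 and 5 of Ccr1 in Ccr2-/- mice, so that the sizes are imprecise, and in WT mice neither call held with the mouse as a block.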

How the results depend on the processing

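Of 47 calls on the 7 receptors, 34 held in every other setting and without each single library, 36 in every other setting and 37 without each library. Those of Fpr1 and Fpr2 with LPS held throughout, except Fpr1 in reporter MG, which was lost without LPS mouse 1 or mouse 5, and Fpr2 in WT MG, which was lost when the compared libraries alone were fitted. Counts of receptors called changed as follows. DESeq2 gave 1 in place of 0 for BLZ945 in Ccr2-/- MG, for tdT after LPS and for genotype by LPS in sdCAMs, and 2 in place of 1 for LPS in reporter MG. Without the low-count filter, the count was 2 for BLZ945 in Ccr2-/- MG (in place of 0), 2 for LPS in reporter MG (1), 1 for tdT after PBS and after LPS (0), 2 for genotype in untreated MG (1) and 2 in untreated sdCAMs (4), and 1 for genotype by LPS in MG and in sdCAMs (0). With library totals in place of TMM factors it was 1 for tdT after LPS and for tdT by LPS (0), 2 for cell type after LPS in WT mice (5), these being Fpr2 and a further call of Ccr2, with Ccr1 reversed to -0.095 and Cmklr1 to -0.40, 5 for cell type by LPS in WT mice (2) and 1 for genotype in untreated sdCAMs (4). Library totals also called Cmklr1 lower with LPS in WT sdCAMs (-2.13) and Ccr1 lower in tdT- sdCAMs (-1.98), and they moved the median log2 fold change of all genes, to -1.55 for LPS in WT sdCAMs, 1.41 for BLZ945 in WT sdCAMs, -0.76 for LPS in tdT- sdCAMs, 1.14 for tdT after LPS, -1.92 for cell type after LPS in WT mice and -1.70 for cell type by LPS in WT mice. The mark on WT sdCAM libraries as a covariate gave 1 for genotype in untreated sdCAMs (4) and 1 for genotype by LPS in sdCAMs (0), as did fitting only the compared libraries for the latter.

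With the mouse as a replicate block, the count for cell type by LPS in WT mice went from 2 to 0, and Ccr2 between the cell types in untreated WT mice was lost and Cxcr4 in untreated Ccr2-/- mice gained. No other call of a receptor changed with the block. Leaving out each library in turn gave 0 to 2 for LPS in reporter MG, 0 without LPS mouse 1 or mouse 5 and 2 without PBS mouse 175. It gave 0 to 2 for cell type by LPS in WT mice and 1 to 2 for genotype in untreated sdCAMs. The cause of these changes was not tested.

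Counts over all genes moved more. From the main count to the lowest and highest over all settings and left-out libraries, they went from 664 to 137 and 2886 for LPS in WT sdCAMs, from 118 to 0 and 853 in reporter MG, from 1698 to 966 and 2471 in tdT+ and from 3371 to 1513 and 4337 in tdT- sdCAMs. For tdT they went from 3 to 0 and 105 after PBS, from 1352 to 0 and 3829 after LPS and from 657 to 0 and 2214 for the interaction. Between the cell types in WT mice they went from 2242 to 960 and 3078 untreated, from 4651 to 1092 and 7976 after LPS and from 174 to 46 and 2708 for the interaction. For genotype in untreated mice they went from 686 to 535 and 2170 in MG and from 1260 to 349 and 2149 in sdCAMs. Dropping the fold limit gave 3643 in place of 1972 for LPS in WT MG and 4036 in place of 2243 in Ccr2-/- MG. BLZ945 ranged from 0 to 108 in WT MG, 0 to 788 in WT sdCAMs, 0 to 70 in Ccr2-/- MG and 0 to 145 in Ccr2-/- sdCAMs, and genotype by LPS from 0 to 31 in MG and 0 to 622 in sdCAMs. Depth limits the values of Fpr1, Fpr2, Cxcr4 and Ccr1 in MG without LPS and of Ccr2 in WT sdCAMs after CTL LPS, which rest on few counts.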
